A study of Mus musculus with 24 samples.

Results

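The genes described here are 36 genes of the endoplasmic reticulum (ER) stress and amino acid response, out of 52636 gene identifiers measured in MC38 cells. They were chosen by name as ER chaperones, unfolded protein response genes and ATF4 targets, by a rule that uses no measured value. Earlier results of these data were known when they were chosen. All 36 were found by symbol. MC38 is a colorectal cancer cell line from a C57BL/6 mouse, and RNA was sequenced from 8 lines of it with 3 samples each, taken at different passages. MC38-WT (passages 7, 8 and 9) was unmodified and grew without puromycin, whereas the other 7 lines grew with puromycin. MC38-MOCK#1 (passages 4, 5 and 6) went through CRISPR-Cas9 editing without a target gene and is the reference for the knockout lines. MC38-COSMC KO, MC38-CMAS KO and MC38-DKO (passages 4, 5 and 6 each) are labelled as knockouts of COSMC (C1galt1c1, the chaperone of the enzyme that extends the Tn antigen), of CMAS (Cmas, which activates sialic acid) and of both. MC38-MOCK#2 (passages 6, 7 and 8) went through CRISPR-dCas-VPR activation without a target and is the reference for MC38-FUT9 (passages 6, 7 and 8) and for the line labelled FUT4 (passages 7, 8 and 7), in which a fucosyltransferase gene was to be activated. MC38-COSMC KO was sorted in bulk for lectin binding, so it is a population of edited cells rather than a clone, and the labels name 1 engineered line for each target.

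Cells that load more protein into the ER than it can fold switch on the unfolded protein response. Its sensors IRE1 (Ern1), PERK (Eif2ak3) and ATF6 raise the transcription of chaperones and of the machinery that removes misfolded proteins. PERK also shares the translation factor eIF2 with a sensor of amino acid shortage, and both routes lead to ATF4, which drives genes for amino acid synthesis and uptake and the stress factors CHOP (Ddit3), ATF3 and TRIB3. O-glycans and N-glycans are made along the same secretory route that these chaperones serve.

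Some promoters of the 36 genes hold the sequence elements through which ATF6 and ATF4 are known to act, and these are shown because the genes that carry them recur in the results. RefSeq promoters (GRCm38.p6) were found for 32 of the 36 genes, and the 250 bases before the start were searched on both strands. The ER stress response element (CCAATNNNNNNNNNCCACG), bound by NF-Y and ATF6, was found in 7 of the 32 genes, against 0.13% of 27025 genes with a promoter. They were Hspa5, Hsp90b1, Calr, Canx, Pdia6, Dnajc3 and Syvn1. The related element ERSE-II (ATTGGNCCACG) was found in Herpud1 only among the 32, against 0.037% of all promoters, and TGACGTGG, the XBP1-type element, was found in 0 of the 32, against 0.603%. The amino acid response element (TGATGNAA), bound by ATF4, was found in 5 genes, Herpud1, Atf3, Chac1, Asns and Slc7a11, against 3.91% of all promoters. A match shows only that these letters occur in the window. In the following, the matched letters are in capitals and each sequence runs 5′ to 3′ on the strand of its gene, with 10 bases on either side; Hsp90b1 has 2 such elements in opposite orientation, as does Slc7a11 for the amino acid response element.
Hsp90b1 (chr10:86705523-86705666, minus strand): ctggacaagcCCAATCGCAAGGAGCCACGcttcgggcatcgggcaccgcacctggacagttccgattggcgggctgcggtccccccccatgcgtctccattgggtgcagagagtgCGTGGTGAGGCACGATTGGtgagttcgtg
Calr (chr8:84847065-84847103, minus strand): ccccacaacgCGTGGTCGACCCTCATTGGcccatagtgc
Pdia6 (chr12:17266481-17266519, plus strand): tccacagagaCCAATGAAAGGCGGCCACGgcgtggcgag
Dnajc3 (chr14:118937817-118937855, plus strand): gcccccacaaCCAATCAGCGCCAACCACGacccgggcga
Syvn1 (chr19:6046522-6046560, plus strand): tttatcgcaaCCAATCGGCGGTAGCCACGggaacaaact
Herpud1 (chr8:94386307-94386397, plus strand): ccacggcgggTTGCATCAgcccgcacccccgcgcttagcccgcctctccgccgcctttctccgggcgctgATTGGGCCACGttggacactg
Atf3 (chr1:191183426-191183453, minus strand): cttctcgcacTTGCATCAccaagtccgc
Chac1 (chr2:119351039-119351066, plus strand): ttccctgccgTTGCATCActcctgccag
Slc7a11 (chr3:50443643-50443689, minus strand): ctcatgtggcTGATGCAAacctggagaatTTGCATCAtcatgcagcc

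The deposited values are read counts scaled per library by the authors, called normalized counts here, with totals of 10911849 to 12263307 per sample and an estimated 6760723 to 16232041 reads behind them. Cmas had 93 to 142 normalized counts in MC38-CMAS KO and MC38-DKO and at least 272 elsewhere. C1galt1c1 had 145, 163 and 124 in MC38-COSMC KO against 242, 220 and 251 in MC38-MOCK#1 (log2 fold change -0.73, SE 0.13, adjusted p = 0.0128, limma), and 206, 166 and 175 in MC38-DKO against 215, 181 and 152 in MC38-CMAS KO. An edit need not lower the RNA of its gene. Fut9 had 955, 641 and 676 in MC38-FUT9. The line labelled FUT4 had 1, 0 and 1 normalized counts of Fut4 but 209, 171 and 186 of Fut9, so its RNA goes against its label and it is called the line labelled FUT4 throughout. The epithelial markers Epcam and Cdh1 were at 0 to 3 in every sample and the mesenchymal marker Vim at 19787 or above, so these defining epithelial markers were absent from a line derived from a colon tumour. The sum of 8 epithelial markers was 2 to 49 in 7 lines and 266 to 476 in the line labelled FUT4, nearly all of it Krt20, and the part of this in the differences of that line was not tested. Leukocyte markers summed to at most 22. In bulk RNA, fewer expressing cells and less RNA per cell cannot be told apart. Nothing in the sources says whether passages were kept as separate cultures, so p-values measure the spread between these samples only.

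**Figure D1:**
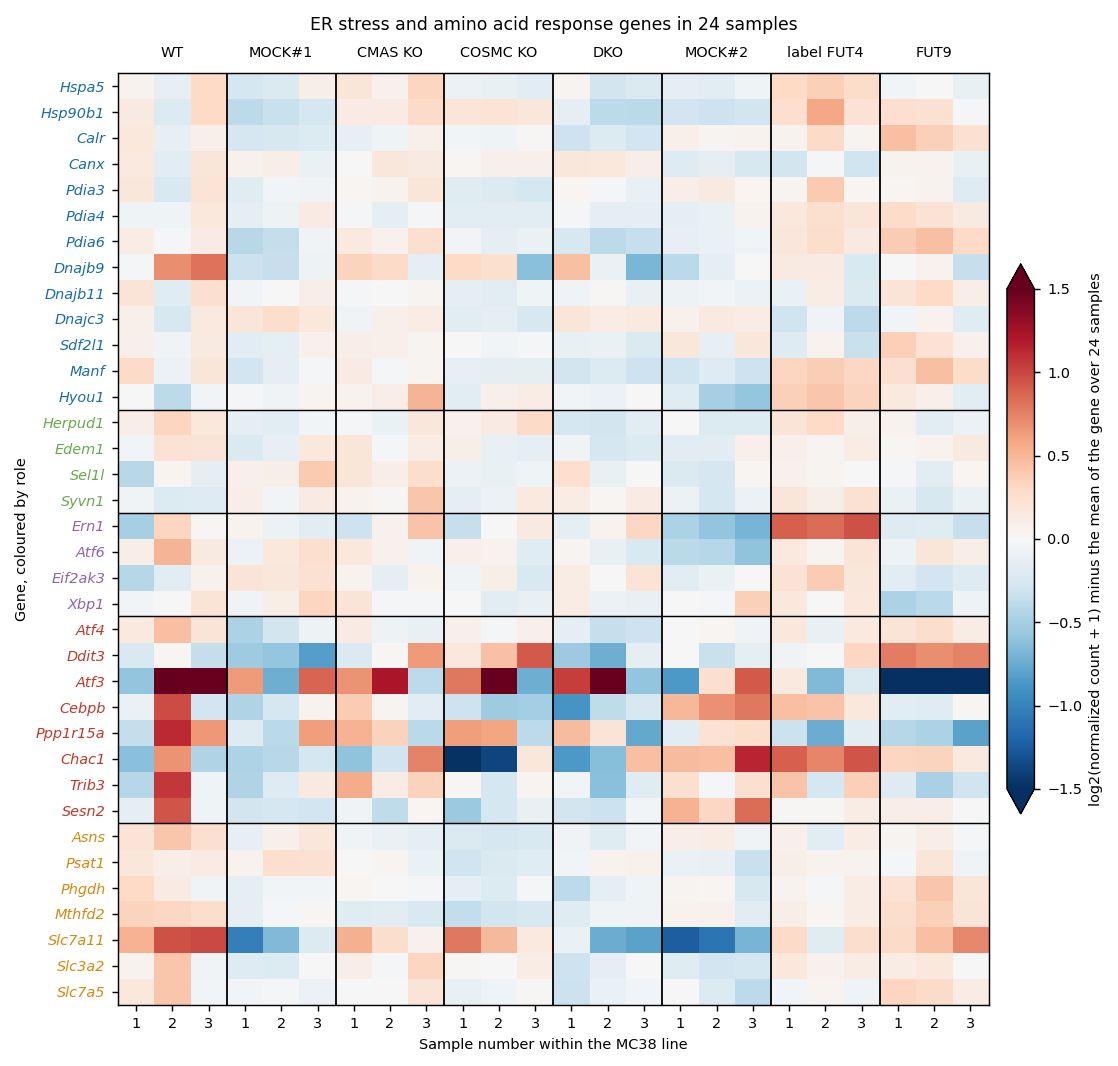
The 36 genes run from top to bottom, coloured by role (blue, chaperones and folding enzymes; green, ER-associated degradation; purple, sensors and Xbp1; red, stress factors; orange, amino acid genes), the 24 samples from left to right, and the colour gives log2(normalized count + 1) minus the mean of the gene, with the scale ending at 1.5 in either direction. Slc7a11 is blue in all samples of MC38-MOCK#1, MC38-DKO and MC38-MOCK#2, Atf3 is deep blue in the 3 samples of MC38-FUT9, and sample 2 of MC38-WT is red over most stress factors.

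Per kilobase of transcript, the ER chaperones were the most abundant of the 36 genes. The mean over 24 samples was 6553 normalized counts per kb for Calr, 4397 for Hspa5 and 4354 for Hsp90b1, followed by 3811 for the transcription factor gene Atf4. On the same scale these 4 lay at or above the percentile 99.1 of the genes with a mean of at least 10 normalized counts. The lowest were the sensor genes Eif2ak3 at 57.0 and Ern1 at 63.6, the co-chaperone Dnajb9 at 50.9 and Atf3 at 42.4 per kb. Of the abundant genes, Canx ranged 1.26-fold and Calr 1.53-fold between the lowest and the highest line mean. Hsp90b1 ranged 1.62-fold and Pdia6 1.63-fold. The widest ranges were 23.2-fold for Atf3, 3.56-fold for Slc7a11, 2.93-fold for Chac1, 2.79-fold for Ern1 and 2.59-fold for Ddit3. These genes ranked between 26 and 36 of the 36 per kb. Other low genes ranged less, 1.72-fold for Dnajb9 and 1.39-fold for Eif2ak3. Over all 8 lines, 30 of the 36 genes differed by limma's F-test (adjusted p below 0.05), against 43% of the 23695 genes tested. Among the 13515 genes with a mean of at least 10 normalized counts, which include all 36, 9153 were called, with the same 30 among them. Shares over all genes, here and below, also count low genes, of which fewer were called. The 6 that did not pass were Pdia3, Dnajb11, Dnajb9, Edem1, Ppp1r15a and Trib3. MC38-WT had the highest mean for 11 of the 36 genes, and the line labelled FUT4 and MC38-FUT9 for 8 each. MC38-COSMC KO had the lowest mean for 8, and MC38-DKO and MC38-MOCK#2 for 7 each.

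Of the 13 chaperones and folding enzymes, 10 differed over the 8 lines. Pdia6, a protein disulfide isomerase with the ER stress element printed above, had 6064, 6312 and 7824 normalized counts in MC38-MOCK#1, 6833, 6197 and 6355 in MC38-DKO, 7874, 7389 and 7540 in MC38-COSMC KO, 8933, 8476 and 9563 in MC38-CMAS KO and 8727, 7981 and 8857 in MC38-WT. The dCas lines had 7465, 7551 and 7855 in MC38-MOCK#2, 9133, 9689 and 8898 in the line labelled FUT4 and 10590, 11062 and 9949 in MC38-FUT9 (F-test adjusted p = 1.52e-06, limma). All 3 MC38-FUT9 samples lay above every other sample of the series, and MC38-MOCK#1 and MC38-DKO, which overlapped, held the 5 lowest samples. Hsp90b1, the ER form of HSP90, had a high and a low set of lines. It had 13073, 13646 and 14295 in MC38-MOCK#1, 15706, 13124 and 12992 in MC38-DKO and 14091, 13938 and 14253 in MC38-MOCK#2. Against this, it had 18773, 18746 and 20995 in MC38-CMAS KO, 19477, 19880 and 19423 in MC38-COSMC KO, 20501, 25724 and 20065 in the line labelled FUT4, 20488, 20228 and 16847 in MC38-FUT9 and 18864, 14963 and 21194 in MC38-WT (F-test adjusted p = 3.71e-05). Of the 9 samples in the low set, none reached the lowest sample of MC38-CMAS KO, MC38-COSMC KO, MC38-FUT9 or the line labelled FUT4, and sample 2 of MC38-WT lay among them.

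Manf, a secreted ER stress protein, was highest in the activation lines. It had 2367, 2442 and 2349 in the line labelled FUT4 and 2251, 2594 and 2288 in MC38-FUT9 against 1533, 1651 and 1525 in MC38-MOCK#2. In the remaining lines it had 1547, 1717 and 1852 in MC38-MOCK#1, 2066, 1864 and 1940 in MC38-CMAS KO, 1740, 1708 and 1703 in MC38-COSMC KO, 1564, 1636 and 1526 in MC38-DKO and 2302, 1778 and 2144 in MC38-WT (F-test adjusted p = 1.69e-06). Sample 1 of MC38-WT was the only sample outside the activation lines that reached their range. Calr, the lectin chaperone of the calreticulin cycle, had 25565, 23894 and 21931 in MC38-FUT9 and 19737, 19296 and 19441 in MC38-MOCK#2, 19448, 22771 and 19226 in the line labelled FUT4 and 20918, 17167 and 19627 in MC38-WT. The Cas9 lines had 15669, 15820 and 16176 in MC38-MOCK#1, 15100, 16200 and 15322 in MC38-DKO, 17110, 17841 and 19752 in MC38-CMAS KO and 18165, 17821 and 18954 in MC38-COSMC KO (F-test adjusted p = 3.60e-05). MC38-MOCK#1 and MC38-DKO overlapped and were the lowest, and their samples lay below all others. Of the other chaperones, Hspa5 (BiP, the main ER HSP70) ranged from 15269 to 23683 over the 24 samples, with the highest line mean in the line labelled FUT4. The oxygen-regulated HSP110 Hyou1 ranged from 3153 to 6705, the disulfide isomerase Pdia4 from 3742 to 5073, the PERK inhibitor Dnajc3 from 888 to 1400, the lectin chaperone Canx from 12210 to 16969 and Sdf2l1 from 377 to 611. Pdia3 (8655 to 13602), Dnajb11 (1288 to 1840) and Dnajb9 (78 to 221) did not pass the F-test.

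The 4 genes of ER-associated degradation, which returns misfolded proteins to the cytosol, differed at most 1.35-fold between line means. Herpud1, which anchors the degradation complex, had 1573, 1550 and 1700 in MC38-MOCK#1, 1717, 1624 and 1968 in MC38-CMAS KO, 1833, 1902 and 2125 in MC38-COSMC KO, 1456, 1438 and 1549 in MC38-DKO and 1878, 2179 and 1955 in MC38-WT. In the dCas lines it had 1751, 1520 and 1514 in MC38-MOCK#2, 1999, 2141 and 1856 in the line labelled FUT4 and 1818, 1556 and 1641 in MC38-FUT9 (F-test adjusted p = 0.000672, limma). Samples 1 and 2 of MC38-DKO were the lowest of the series. Its sample 3 (1549) overlapped MC38-MOCK#2 and lay just below the lowest sample of MC38-MOCK#1 (1550). The ubiquitin ligase gene Syvn1 had 1432, 1346 and 1487 in the line labelled FUT4 and 1188, 1054 and 1185 in MC38-MOCK#2, with 1176, 1071 and 1177 in MC38-FUT9, 1356, 1228 and 1374 in MC38-MOCK#1, 1306, 1283 and 1682 in MC38-CMAS KO, 1140, 1190 and 1402 in MC38-COSMC KO, 1361, 1295 and 1376 in MC38-DKO and 1219, 1098 and 1102 in MC38-WT. Its ligase partner Sel1l had 820, 1125 and 992 in MC38-WT and 1152, 1160 and 1434 in MC38-MOCK#1, with 1239, 1166 and 1312 in MC38-CMAS KO, 1025, 1014 and 1043 in MC38-COSMC KO, 1296, 1012 and 1096 in MC38-DKO, 940, 913 and 1117 in MC38-MOCK#2, 1142, 1125 and 1093 in the line labelled FUT4 and 1075, 980 and 1113 in MC38-FUT9. Both genes passed the F-test narrowly (adjusted p = 0.012 and 0.0449), and most lines overlapped. Edem1, which picks out misfolded glycoproteins, had 1420, 1505 and 1829 in MC38-MOCK#1, 1872, 1619 and 1778 in MC38-CMAS KO, 1754, 1523 and 1494 in MC38-COSMC KO, 1581, 1384 and 1428 in MC38-DKO, 1600, 1914 and 1885 in MC38-WT, 1472, 1472 and 1738 in MC38-MOCK#2, 1729, 1694 and 1770 in the line labelled FUT4 and 1667, 1708 and 1806 in MC38-FUT9. It did not pass (adjusted p = 0.114).

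All 3 sensor genes and Xbp1, the factor spliced by IRE1, differed over the lines. Ern1 had 920, 884 and 959 normalized counts in the line labelled FUT4, where the lowest sample exceeded every other sample of the series. It had 355, 329 and 305 in MC38-MOCK#2 and 434, 435 and 388 in MC38-FUT9. In the remaining lines it had 513, 465 and 440 in MC38-MOCK#1, 399, 516 and 665 in MC38-CMAS KO, 388, 494 and 542 in MC38-COSMC KO, 452, 515 and 612 in MC38-DKO and 351, 618 and 502 in MC38-WT (F-test adjusted p = 3.88e-05). These 5 lines overlapped one another. Atf6 had 761, 751 and 663 in MC38-MOCK#2, below each other sample of the series, and 1114, 1041 and 1151 in the line labelled FUT4 and 956, 1145 and 1068 in MC38-FUT9. The other lines had 947, 1122 and 1198 in MC38-MOCK#1, 1125, 1057 and 970 in MC38-CMAS KO, 1062, 1047 and 886 in MC38-COSMC KO, 1033, 932 and 858 in MC38-DKO and 1071, 1435 and 1110 in MC38-WT (F-test adjusted p = 0.000552), with sample 2 of MC38-WT the highest. Eif2ak3 lay between 253 and 444, with the highest line mean in the line labelled FUT4 (397, 444 and 384) and low in MC38-FUT9 (305, 280 and 297) and MC38-MOCK#2 (305, 318 and 339), with 388, 383 and 399 in MC38-MOCK#1, 354, 308 and 353 in MC38-CMAS KO, 328, 361 and 290 in MC38-COSMC KO, 367, 338 and 394 in MC38-DKO and 253, 305 and 355 in MC38-WT. The line labelled FUT4 overlapped MC38-MOCK#1 and MC38-DKO. Xbp1 was lowest in MC38-FUT9 (808, 851 and 1061), whose sample 3 overlapped other lines. It had 1080, 1191 and 1405 in MC38-MOCK#1, 1281, 1107 and 1102 in MC38-CMAS KO, 1118, 1010 and 1036 in MC38-COSMC KO, 1209, 1058 and 1040 in MC38-DKO, 1094, 1126 and 1291 in MC38-WT, 1125, 1110 and 1440 in MC38-MOCK#2 and 1254, 1125 and 1253 in the line labelled FUT4. Gene-level values hold no measure of Xbp1 splicing or of sensor activation.

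Among the 8 stress factors and feedback genes, 6 differed over the lines. Ddit3 (CHOP, a pro-apoptotic factor) had 653, 623 and 643 in MC38-FUT9, 384, 306 and 347 in MC38-MOCK#2 and 371, 382 and 476 in the line labelled FUT4. In the Cas9 lines it had 266, 258 and 216 in MC38-MOCK#1, 331, 391 and 598 in MC38-CMAS KO, 431, 521 and 728 in MC38-COSMC KO and 263, 231 and 347 in MC38-DKO, and in MC38-WT 329, 393 and 299 (F-test adjusted p = 3.67e-05, limma). MC38-FUT9 was high with little spread, while the knockout lines spread widely, with sample 3 the highest of each. Atf3, an early stress-induced repressor, had 4, 8 and 7 normalized counts in MC38-FUT9 and between 33 and 275 in all other samples. It had 33, 72 and 116 in MC38-MOCK#2, 67, 38 and 52 in the line labelled FUT4, 95, 36 and 112 in MC38-MOCK#1, 97, 143 and 46 in MC38-CMAS KO, 106, 275 and 36 in MC38-COSMC KO, 125, 243 and 40 in MC38-DKO and 40, 198 and 202 in MC38-WT (F-test adjusted p = 0.00113). MC38-FUT9 overlapped no other line, whereas the other 7 overlapped one another.

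Cebpb, a partner of ATF4 in dimers, had 981, 1116 and 1205 in MC38-MOCK#2, 951, 938 and 774 in the line labelled FUT4 and 619, 611 and 710 in MC38-FUT9. It had 507, 585 and 719 in MC38-MOCK#1, 906, 716 and 616 in MC38-CMAS KO, 561, 480 and 490 in MC38-COSMC KO, 376, 534 and 589 in MC38-DKO and 652, 1375 and 570 in MC38-WT (F-test adjusted p = 0.00196). Sample 2 of MC38-WT held the highest value, next to MC38-MOCK#2. Atf4 itself, which is controlled largely at translation, had 4661, 5359 and 6177 in MC38-MOCK#1, 5926, 5102 and 5239 in MC38-DKO, 7055, 6179 and 6016 in MC38-CMAS KO, 6880, 6448 and 6866 in MC38-COSMC KO and 7186, 8887 and 7445 in MC38-WT. The dCas lines had 6532, 6653 and 6283 in MC38-MOCK#2, 7259, 6027 and 7181 in the line labelled FUT4 and 7443, 7831 and 7034 in MC38-FUT9 (F-test adjusted p = 0.000598). MC38-MOCK#1 and MC38-DKO overlapped at the low end, and both lay below the lowest sample of MC38-COSMC KO, of MC38-WT and of MC38-FUT9. Chac1, which degrades glutathione, ranged from 60 to 375 and was highest in MC38-MOCK#2 (236, 232 and 375) and the line labelled FUT4 (316, 283 and 328). Sesn2, an inhibitor of mTORC1, ranged from 334 to 942. Ppp1r15a (GADD34, which reverses eIF2 phosphorylation) and Trib3, an inhibitor of ATF4, ranged from 762 to 2894 and from 888 to 2868 and did not pass the F-test (adjusted p = 0.218 and 0.228).

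Sample 2 of MC38-WT stood apart in these genes. It held the highest value of the series for Cebpb, Ppp1r15a (2894), Trib3 (2868), Sesn2 (942), Atf4 and Atf6, and over the 8 stress factors its median was 1.08 log2 units above the mean of the other 2 samples of MC38-WT. Its chaperones lay at a median of 0.317 log2 units below them. The spread that this sample adds enters every test of MC38-WT.

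All 7 genes of amino acid synthesis and transport differed over the 8 lines. Slc7a11 (xCT, which imports cystine for glutathione synthesis) had 561, 726 and 997 normalized counts in MC38-MOCK#1, 1068, 686 and 654 in MC38-DKO and 487, 535 and 705 in MC38-MOCK#2. It had 1654, 1370 and 1199 in MC38-CMAS KO, 1977, 1601 and 1273 in MC38-COSMC KO and 1651, 2218 and 2283 in MC38-WT. In the activation lines it had 1397, 1006 and 1371 in the line labelled FUT4 and 1394, 1569 and 1887 in MC38-FUT9 (F-test adjusted p = 1.70e-06, limma). Both mock lines and MC38-DKO were therefore low and the other 5 lines, wild type included, were high, with sample 1 of MC38-DKO reaching sample 2 of the line labelled FUT4. Slc3a2, the heavy chain that carries Slc7a11 to the membrane, ranged from 3939 to 6529, and the leucine transporter Slc7a5, which uses the same heavy chain, from 5977 to 10511.

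The synthesis genes followed another order. Mthfd2, the mitochondrial folate enzyme, had 4480, 4409 and 4251 in MC38-WT and 4260, 4537 and 4055 in MC38-FUT9, which lay above every sample of the other 6 lines. It had 3211, 3481 and 3590 in MC38-MOCK#1, 3127, 3190 and 3027 in MC38-CMAS KO, 2742, 2940 and 3014 in MC38-COSMC KO, 3126, 3406 and 3431 in MC38-DKO, 3685, 3703 and 3189 in MC38-MOCK#2 and 3765, 3637 and 3842 in the line labelled FUT4 (F-test adjusted p = 9.27e-07). Psat1, of serine synthesis, had 4658, 5328 and 5267 in MC38-MOCK#1, 4490, 4624 and 4210 in MC38-CMAS KO, 3665, 3875 and 3950 in MC38-COSMC KO, 4362, 4646 and 4713 in MC38-DKO and 5041, 4799 and 4880 in MC38-WT. The dCas lines had 4213, 4174 and 3568 in MC38-MOCK#2, 4791, 4662 and 4681 in the line labelled FUT4 and 4452, 5094 and 4343 in MC38-FUT9 (F-test adjusted p = 0.000721). MC38-COSMC KO was low without overlap with the other Cas9 lines or MC38-WT. Asns, asparagine synthetase, had 2825, 2746 and 2804 in MC38-COSMC KO, 3770, 4370 and 3855 in MC38-WT and 3006, 3451 and 3695 in MC38-MOCK#1. It had 3148, 3064 and 2968 in MC38-CMAS KO, 3162, 2884 and 3192 in MC38-DKO, 3501, 3541 and 3165 in MC38-MOCK#2, 3464, 2914 and 3538 in the line labelled FUT4 and 3367, 3478 and 3224 in MC38-FUT9. MC38-COSMC KO was the lowest line and MC38-WT the highest, and MC38-WT overlapped no other line. Phgdh, the first enzyme of serine synthesis, ranged from 5516 to 9619.

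**Figure D2:**
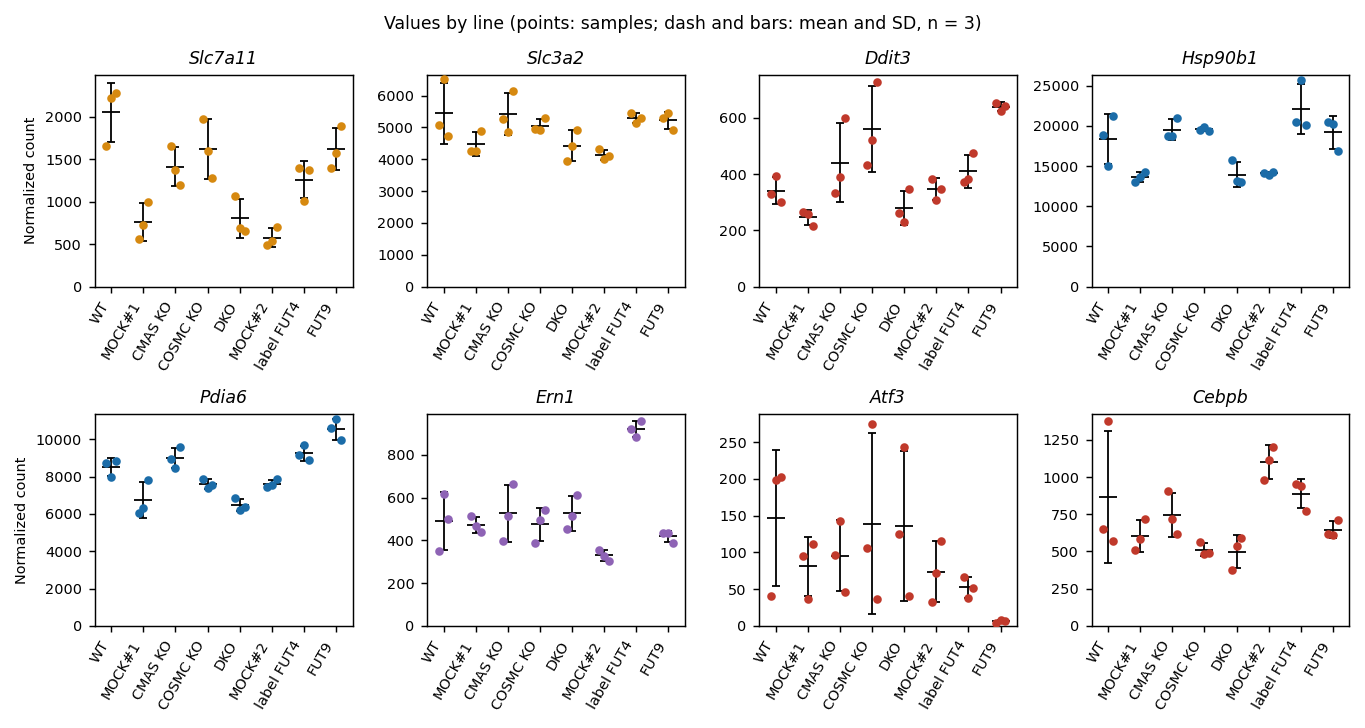
Normalized counts (linear axis from 0) of 8 of the genes in the 3 samples of each line, with the mean and SD (n = 3). Slc7a11 and Hsp90b1 are low in MC38-MOCK#1, MC38-DKO and MC38-MOCK#2, Ern1 is high in the line labelled FUT4 (884 to 959), and Atf3 is at 4 to 8 in MC38-FUT9.

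The first comparison asked what the overexpression lines did relative to their own reference, MC38-MOCK#2. In MC38-FUT9, 14 of the 36 genes rose and 5 fell, against 12.1% of 21480 genes that rose and 12% that fell, so that the share that fell was close to that over all genes. With a mean of at least 10 normalized counts required, 14 rose and 6 fell, against 2602 and 2518 of 13315 genes. The median log2 fold change of the 36 genes was 0.17, against 0.01 over all genes. Among the chaperones 7 of 13 rose and none fell by limma's test: Manf (0.60, SE 0.076, adjusted p = 0.00227), Pdia6 (0.47, SE 0.067, adjusted p = 0.00374), Hyou1, Hsp90b1, Calr, Pdia4 and Dnajb11, at 0.26 to 0.60 on the log2 scale. The sensors Atf6 (log2 fold change 0.54, SE 0.092, adjusted p = 0.007) and Ern1 (0.35, SE 0.089, adjusted p = 0.0321) rose. The stress factors divided. Ddit3 rose (0.89, SE 0.094, adjusted p = 0.00118), whereas Atf3 (-3.22, SE 0.49, adjusted p = 0.00449), Cebpb (-0.76, SE 0.10, adjusted p = 0.00251), Ppp1r15a (-0.68), Sesn2 (-0.49) and Trib3 (-0.48) fell. The log2 fold change of Atf3 depends on the pseudocount of 1, since 4 to 8 normalized counts are close to the floor. Of the amino acid genes 4 of 7 rose: Slc7a11 (1.49, SE 0.16, adjusted p = 0.00134), Slc7a5 (0.44, SE 0.11, adjusted p = 0.0334), Slc3a2 (0.34, SE 0.066, adjusted p = 0.0119) and Mthfd2 (0.28, SE 0.082, adjusted p = 0.0472). No gene of ER-associated degradation passed, the largest log2 fold change being 0.15 for Edem1, and neither Hspa5 (0.076, 95% interval -0.095 to 0.25) nor Xbp1 (-0.43, interval -0.77 to -0.10, adjusted p = 0.0665) did. With all libraries scaled to the same total, 8 of the 36 rose and 7 fell, against 1979 and 3239 of the 21480 genes. Leaving out any 1 of the 6 samples brought the count of 19 down to between 8 and 12, and it was 7 without the mean-variance trend in limma.

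In the line labelled FUT4, whose RNA carried Fut9 and not Fut4, 12 of the 36 genes rose and 2 fell against MC38-MOCK#2, where 8.1% of 21734 genes rose and 8.04% fell. With a mean of at least 10 normalized counts required, 13 rose and 2 fell, against 1688 and 1863 of 13445 genes. The median over the 36 genes was again 0.17, against 0 over all genes. Ern1 rose the most (1.48, SE 0.081, adjusted p = 0.000178), with Atf6 (0.60, SE 0.08, adjusted p = 0.00366) and Eif2ak3 (0.35, SE 0.088, adjusted p = 0.0406) also higher, so that all 3 sensor genes passed. Among the chaperones Hyou1 (0.79, SE 0.11, adjusted p = 0.00421), Hsp90b1 (0.64, SE 0.11, adjusted p = 0.00879), Manf (0.60, SE 0.06, adjusted p = 0.00132), Hspa5 (0.43, SE 0.071, adjusted p = 0.00817) and Pdia6 (0.28, SE 0.065, adjusted p = 0.0301) rose, and Dnajc3 fell (-0.35, SE 0.095, adjusted p = 0.0475). Both Herpud1 (0.33) and Syvn1 (0.32) rose. Of the stress factors 1 of 8 passed, Sesn2 (-0.51, SE 0.13, adjusted p = 0.0426), and Ddit3 had 0.24 with a 95% interval of -0.066 to 0.55. Of the amino acid genes Slc7a11 (1.13, SE 0.18, adjusted p = 0.00679) and Slc3a2 (0.36, SE 0.062, adjusted p = 0.00964) rose. The count of 14 became 5 without sample 1 of this line and 6 without sample 3, and 9 and 7 without samples 1 and 2 of MC38-MOCK#2. Without sample 2 of the line, whose chaperones lay at a median of 0.236 log2 units above those of its samples 1 and 3, it was 11. Without the mean-variance trend, or with the sample number as a block, it was 7, where 2270 and 1756 of the 21734 genes were called. Samples 1 and 3 of the line carry the same passage number and were the closest pair of samples within any line. Their median absolute log2 difference was 0.0867, against 0.119 to 0.241 for the other pairs. It was taken over the 13515 genes with a mean of at least 10 normalized counts. Samples 1 and 3 may therefore not be independent. They were kept as 2 samples, as labelled, and the p-values of this line count them so. Their mean chi-square was 5.31 a gene over 13721 genes, where counting noise alone gives a mean of about 1. Their median chi-square was 0.713, for which a mean of 1 is no reference. Both chi-square values were the lowest of all pairs within a line. Neither value can tell separate cultures from 2 preparations of 1 culture. Both activation lines share the MC38-MOCK#2 samples, so their values are set side by side only: Slc7a11 1.49 and 1.13, Manf 0.60 and 0.60, Atf6 0.54 and 0.60, Ern1 0.35 and 1.48, Ddit3 0.89 and 0.24 in MC38-FUT9 and the line labelled FUT4. Whether they differ between the activation lines was not tested.

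**Figure D3:**
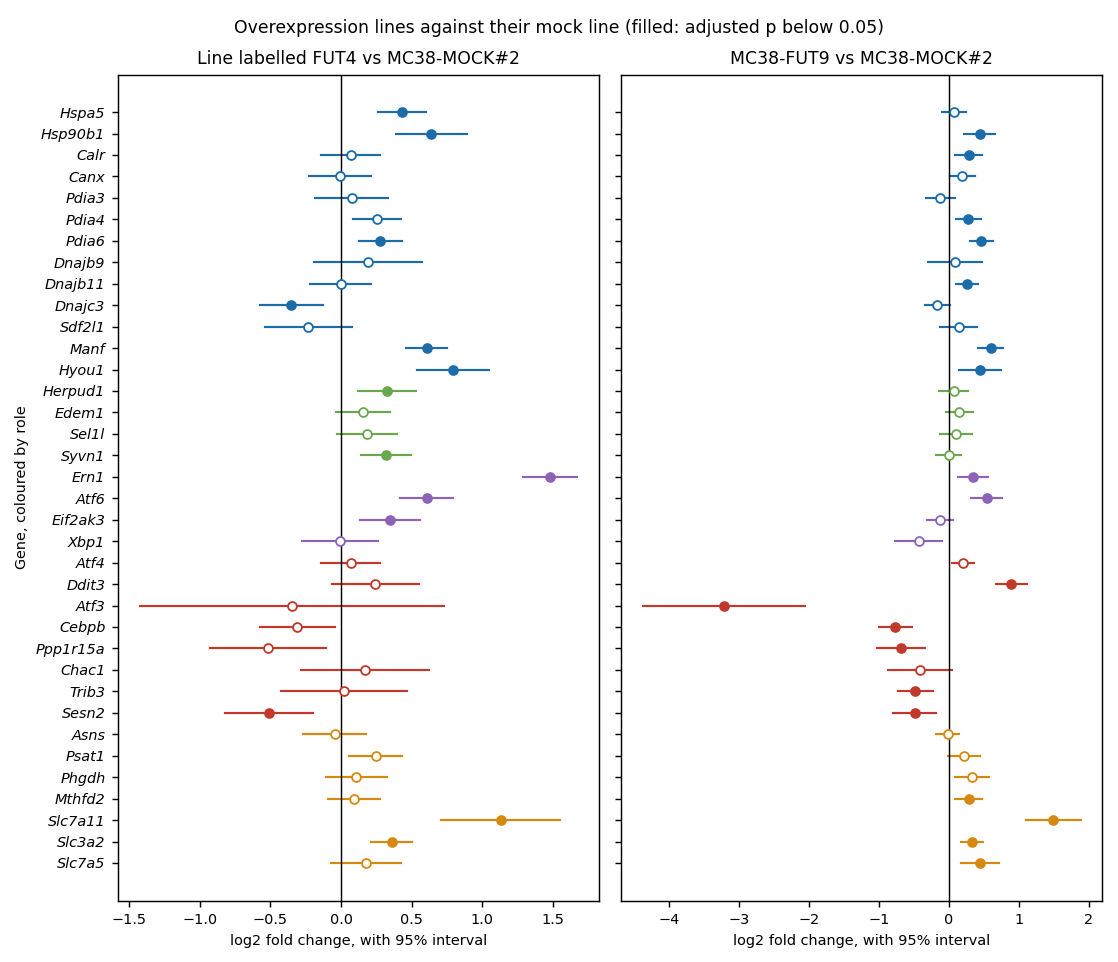
Log2 fold changes of the 36 genes against MC38-MOCK#2 with 95% intervals (limma), for the line labelled FUT4 (left) and MC38-FUT9 (right), on horizontal axes of different range; filled points have an adjusted p below 0.05 and colours give the role as in the heat map. Ern1 at 1.48 stands out on the left and Atf3 at -3.22 on the right, and Slc7a11 is high in both.

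The knockout lines were compared with MC38-MOCK#1. In MC38-COSMC KO, 5 of the 36 genes rose and 2 fell, against 6.17% and 5.39% of 22172 genes, so that the share that fell was close to that over all genes. Ddit3 (1.15, SE 0.19, adjusted p = 0.0105), Slc7a11 (1.1, SE 0.23, adjusted p = 0.0238), Hsp90b1 (0.52, SE 0.05, adjusted p = 0.00157), Herpud1 (0.28, SE 0.072, adjusted p = 0.0494) and Calr (0.20, SE 0.047, adjusted p = 0.0327) rose. Psat1 (-0.41, SE 0.066, adjusted p = 0.0105) and Dnajc3 (-0.38, SE 0.057, adjusted p = 0.00771) fell. The median over the 36 genes was 0.01. With a mean of at least 10 normalized counts required, 6 rose and 4 fell, against 1539 and 1469 of 13502 genes. With all libraries scaled to the same total 3 rose and 4 fell, against 1125 and 1746 of the 22172 genes. With the median of each chromosome removed 3 rose and 2 fell, against 1123 and 1043. The count of 7 became 3, 2 and 4 without samples 1, 2 and 3 of MC38-COSMC KO, and 4, 2 and 8 without those of MC38-MOCK#1, and Hsp90b1 and Dnajc3 passed in each of the 6 fits that left out a sample. Without the mean-variance trend the count was 1, Hsp90b1, and with the sample number as a block it was 0. Over all genes, 1135 of 22172 were called without the trend and 4 with the block.

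In MC38-CMAS KO, 1 of the 36 genes rose, Hsp90b1 (0.51, SE 0.069, adjusted p = 0.0106), and 0 fell, against 3.02% and 2.73% of 22024 genes, a share close to that over all genes. By limma 13 of the 36 were below an unadjusted p of 0.05, against 4723 of the 22024 genes. The count of 1 became 0 without sample 1 or 2 of either line and 2 without sample 3 of MC38-MOCK#1. It was 0 without the mean-variance trend and with the sample number as a block, where 726 and 1 of the 22024 genes were called. Slc7a11 had 0.91 (95% interval 0.40 to 1.42, adjusted p = 0.0592) and Pdia6 0.42 (0.18 to 0.67, adjusted p = 0.0662). In MC38-DKO, by limma 0 of the 36 genes passed in either direction, against 0.023% of 21738 genes that rose and 0.069% that fell. An unadjusted p below 0.05 was found for 0 of the 36, against 1632 of the 21738 genes. The largest log2 fold change among the 36 was that of Atf3 (0.55, interval -0.89 to 1.99), and those of Slc7a11 and Hsp90b1 were 0.079 (-0.45 to 0.61) and 0.024 (-0.18 to 0.23). These intervals exclude changes of the size found for both genes in MC38-COSMC KO.

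Set directly against the single knockouts, MC38-DKO had genes that differed from either of them. Against MC38-CMAS KO, 0 of the 36 genes rose and 4 fell, with 3.15% and 3.78% of 21858 genes called. They were Slc7a11 (-0.83, SE 0.19, adjusted p = 0.0419), Hsp90b1 (-0.49, SE 0.095, adjusted p = 0.0227), Pdia6 (-0.48, SE 0.073, adjusted p = 0.00942) and Manf (-0.31, SE 0.069, adjusted p = 0.0351). None of them was called once any sample other than sample 1 of MC38-DKO was left out, or without the mean-variance trend. Hsp90b1 was not called with chromosome medians removed either. Against MC38-COSMC KO, 2 rose and 7 fell, with 6.15% and 6.75% of 22008 genes called. Slc7a11 (-1.02, SE 0.21, adjusted p = 0.0186), Ddit3 (-0.98, SE 0.21, adjusted p = 0.0208), Hsp90b1 (-0.50, SE 0.08, adjusted p = 0.00658), Herpud1 (-0.40, SE 0.073, adjusted p = 0.0111), Atf4 (-0.31, SE 0.071, adjusted p = 0.025), Calr (-0.24) and Pdia6 (-0.23) fell, and Dnajc3 (0.33, SE 0.06, adjusted p = 0.0106) and Psat1 (0.26, SE 0.059, adjusted p = 0.0269) rose. With libraries scaled to the same total the split was 4 up and 5 down, against 1681 and 1311 of the 22008 genes. With chromosome medians removed it was 2 up and 3 down, against 1020 and 1233. Ddit3, Hsp90b1, Atf4 and Calr lost the call with chromosome medians removed. Ddit3 and Hsp90b1 both lie on chromosome 10, as do Ddit4, Aldh1l2, Os9 and Txnrd1 named below. Both kept the call in MC38-COSMC KO against MC38-MOCK#1 and in the interaction. A shared shift of chromosome 10 was not tested. The count of 9 became 2, 1 and 2 without samples 1, 2 and 3 of MC38-COSMC KO, and 6, 3 and 4 without those of MC38-DKO. Without the mean-variance trend it was 0.

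Whether the COSMC knockout label went with different changes with and without the CMAS knockout was tested directly. The interaction test compared the difference of MC38-COSMC KO to MC38-MOCK#1 with that of MC38-DKO to MC38-CMAS KO. It was positive for 10 of the 36 genes and negative for 3, against 9.52% and 9.47% of 24385 genes, with a median over the 36 genes of 0.20. The largest were Slc7a11 (log2 difference 1.94, SE 0.32, adjusted p = 0.000662, limma), Ddit3 (1.77, SE 0.31, adjusted p = 0.00121) and Hsp90b1 (1.01, SE 0.11, adjusted p = 2.69e-05), followed by Trib3 (0.72), Pdia6 (0.66), Atf4 (0.57), Herpud1 (0.53), Slc3a2 (0.47), Calr (0.43) and Manf (0.33). Dnajc3 (-0.49, SE 0.092, adjusted p = 0.00196), Psat1 (-0.45, SE 0.096, adjusted p = 0.00449) and Mthfd2 (-0.33) were negative. With libraries scaled to the same total 7 were positive and 5 negative. Of the sensors and Xbp1, 0 of 4 passed by limma. Leaving out 1 sample at a time gave 9 to 15 called genes, with Slc7a11, Ddit3, Hsp90b1, Pdia6, Atf4, Herpud1, Dnajc3 and Psat1 among them each time, and without the mean-variance trend 8 were called. Because MC38-MOCK#1 and MC38-DKO enter with the same sign and few genes differ between them, the interaction is at the same time a difference of those 2 lines from both single knockouts. Beside it, C1galt1c1 RNA had a log2 fold change of 0.0055 (95% interval -0.35 to 0.36, adjusted p = 1) between MC38-DKO and MC38-CMAS KO, and its part in the result was not tested.

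**Figure D4:**
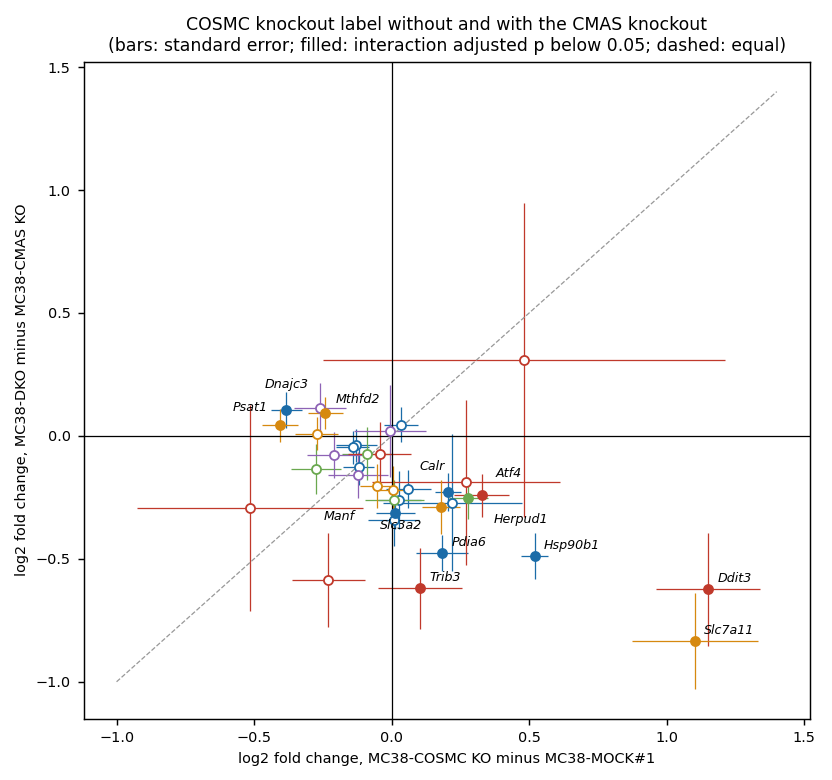
Each point is one of the 36 genes, with the log2 fold change of MC38-COSMC KO against MC38-MOCK#1 on the horizontal axis and of MC38-DKO against MC38-CMAS KO on the vertical axis, both with standard errors, and filled where the interaction has an adjusted p below 0.05. Slc7a11 (1.1 and -0.83), Ddit3 (1.15 and -0.62) and Hsp90b1 (0.52 and -0.49) lie in the lower right quadrant, far from the dashed line of equal change.

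The references themselves differed. Between the mock lines, 4 of the 36 genes were higher in MC38-MOCK#2 and 2 lower, against 5.3% and 6.02% of 21667 genes. Chac1 (1.07, SE 0.20, adjusted p = 0.0186), Cebpb (0.88, SE 0.14, adjusted p = 0.0119), Sesn2 (0.83, SE 0.13, adjusted p = 0.0114) and Calr (0.29, SE 0.062, adjusted p = 0.0281) were higher, and Atf6 (-0.58, SE 0.11, adjusted p = 0.0181) and Ern1 (-0.52, SE 0.095, adjusted p = 0.0182) lower. With libraries scaled to the same total, or with chromosome medians removed, the split was 4 and 4. Over all genes it was 1091 and 1447 with the same total, and 1131 and 1285 with chromosome medians removed. The count of 6 became 1, 0 and 2 without samples 1, 2 and 3 of MC38-MOCK#1, and 3, 1 and 4 without those of MC38-MOCK#2, and was 2 without the mean-variance trend. The editing technology and the passage range both differ between the mock lines and cannot be told apart. MC38-WT had 2 genes higher and 0 lower than MC38-MOCK#1, against 2.7% and 2.81% of 21621 genes: Slc7a11 (1.45, SE 0.22, adjusted p = 0.014) and Mthfd2 (0.35, SE 0.073, adjusted p = 0.0381). Against MC38-MOCK#2 it had 2 higher and 0 lower, against 1.77% and 1.35% of 21292 genes: Slc7a11 (1.83, SE 0.17, adjusted p = 0.00183) and Atf6 (0.72, SE 0.13, adjusted p = 0.0242). By limma 14 of the 36 were below an unadjusted p of 0.05 in either of these comparisons of MC38-WT. Over all genes it was 4472 of 21621 against MC38-MOCK#1 and 3527 of 21292 against MC38-MOCK#2. Leaving out sample 2 of MC38-WT gave 1 called gene in each, which against MC38-MOCK#1 was neither Slc7a11 nor Mthfd2. Leaving out sample 3 of the mock line gave 1 in each, and leaving out sample 3 of MC38-WT, or sample 1 or 2 of the mock line, gave 0. Without sample 1 of MC38-WT there were 2 against MC38-MOCK#1, of which 1 was among the original 2, and 1 against MC38-MOCK#2. With the sample number as a block 0 were called in either, and without the mean-variance trend 0 and 1. Over all genes these fits called 0 and 0 with the block, and 717 and 289 without the trend. Puromycin and passage go with the line here and cannot be told apart from it.

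The other genes of both pathways were read from lists of named pathway members. Of 38 further genes of the ATF4 pathway, 10 rose and 2 fell in MC38-COSMC KO against MC38-MOCK#1, where 6.17% of all genes rose and 5.39% fell. In MC38-CMAS KO 9 rose and 1 fell, against 3.02% and 2.73%, and 0 passed in MC38-DKO. In both single knockouts the share of the list that fell was close to that over all genes. Ddit4, an mTORC1 inhibitor, the lipoprotein receptor gene Vldlr and the mitochondrial folate enzyme gene Aldh1l2 had log2 fold changes of 1.17, 1.14 and 0.88 in MC38-COSMC KO (adjusted p = 0.00249, 0.0125 and 0.0096, limma). Against the same reference, MC38-MOCK#2 had 1.71, 1.21 and 0.96 (adjusted p = 0.00397, 0.0182 and 0.00935, limma). Of the list, 7 of 37 rose and 3 fell in MC38-MOCK#2, against 5.3% and 6.02% of all genes. In MC38-WT 6 of 38 rose and 0 fell, against 2.7% and 2.81%. Rises over MC38-MOCK#1 were therefore not particular to the knockout lines. Against MC38-COSMC KO, MC38-DKO had 1 of the 38 higher and 13 lower, with 6.15% and 6.75% of all genes called, and against MC38-CMAS KO 1 higher and 9 lower, with 3.15% and 3.78%. In the interaction 18 were positive and 6 negative, against 9.52% and 9.47% of all genes. Vldlr (2.01) and Ddit4 (1.78) were among the positive ones, as was Cbs, for which no fold is given because it had 0 to 5 normalized counts in every sample. In MC38-FUT9, 10 of 37 rose and 5 fell, against 12.1% and 12% of all genes, with Atf5 (1.71, SE 0.12, adjusted p = 0.000319) and the serine enzyme gene Shmt2 (1.1, SE 0.096, adjusted p = 0.000645) higher and Ddit4 (-1.34, SE 0.19, adjusted p = 0.00338) lower. In the line labelled FUT4, 7 of 38 rose and 1 fell, against 8.1% and 8.04% of all genes, with the arginine and lysine transporter gene Slc7a1 at 0.51, SE 0.063, adjusted p = 0.00302. The 7 include Cth and Cbs, the enzymes that make cysteine from homocysteine, at counts too low for a fold: Cth had 8, 11 and 10 against 1, 1 and 1 in MC38-MOCK#2, and Cbs 4, 2 and 4 against 0, 0 and 0.

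Of 31 further ER genes tested, 9 rose and 3 fell in MC38-FUT9 and 9 rose and 1 fell in the line labelled FUT4, against the 12.1% and 12% and the 8.1% and 8.04% of all genes given above, with the ER oxidase Ero1l at 1.17 and 0.90 (adjusted p = 0.00675 and 0.0309, limma). In MC38-COSMC KO 3 rose and 1 fell, not far from the 6.17% and 5.39% of all genes, with the degradation lectin Os9 (0.83, SE 0.073, adjusted p = 0.00117) and Ero1l (0.50, SE 0.10, adjusted p = 0.0245) at the top. MC38-DKO had 7 of the 31 lower and 0 higher than MC38-CMAS KO, against 3.78% and 3.15% of all genes, and in the interaction 7 were positive and 2 negative, against 9.52% and 9.47%. Neighbouring stress programmes were read in the same way. The lists of 9 or 10 genes are too short for a share to be set against that over all genes. Of 10 NRF2 targets, 3 had a positive interaction and 0 a negative one, Hmox1 (1.03, SE 0.094, adjusted p = 5.38e-06), Txnrd1 (0.79) and Gclc (0.54), while in MC38-FUT9 2 rose and 3 fell, with Nqo1 at -3.07, SE 0.15, adjusted p = 9.09e-05. Of 10 cytosolic heat shock genes, 0 passed in MC38-COSMC KO and 0 in MC38-CMAS KO against MC38-MOCK#1, and 4 rose and 2 fell in MC38-FUT9. Of 10 cell cycle genes 0 passed in either single knockout, and of 9 hypoxia genes 1 rose and 1 fell in MC38-COSMC KO.

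Across the 8 line means, which share their libraries and their scaling, the genes of a role did not move as a single unit. The median Pearson r over pairs of amino acid genes was 0.565 (21 pairs), over pairs of chaperones 0.266 (78 pairs, from -0.893 to 0.912) and over pairs of stress factors 0.178 (28 pairs). The transporter partners Slc7a11 and Slc3a2 had the highest r of all pairs, 0.936 over 8 line means, followed by Calr and Pdia6 at 0.912, Hsp90b1 and Slc3a2 at 0.903, and Pdia6 with Phgdh and with Manf at 0.89. Hyou1 and Ern1 had an r of 0.858, both being highest in the line labelled FUT4, and Cebpb and Sesn2 an r of 0.872, both being highest in MC38-MOCK#2. The chaperones Hsp90b1 and Dnajc3 ran opposite to each other with the lowest r of all pairs, -0.893, and the ER stress element occurs in the promoters of both.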

How the data were processed

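RNA of 24 MC38 samples (8 lines, 3 each) was sequenced by the authors (TruSeq Stranded mRNA, HiSeq4000, single reads). Per the study's methods and processing notes the authors trimmed reads with Sickle, aligned them to GRCm38 with HISAT2 2.0.4, used SAMtools 0.1.19, counted them per gene with featureCounts (Subread 1.5.0-p3) and normalized them for library size and TMM with edgeR 3.18.1. What the authors deposited is treated as a score, since each library's counts had been multiplied by its own factor and rounded; raw counts were therefore not at hand and no count model was fitted. The reads per sample were inferred from the gaps between the rounded numbers. Reads shared by overlapping genes were left out by the authors. Rounding and low depth limit low genes such as Atf3.

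Each comparison used limma 3.58.1 (lmFit, eBayes with a trend) in R 4.3.3 after adding a pseudocount of 1 and taking log2, fitted to the lines being compared alone, without covariates. A gene at 0 in over 4 of 6 samples (10 of 12, 20 of 24) was dropped. Fold changes are on this scale, with Benjamini-Hochberg adjustment over all genes tested and a threshold of 0.05. The 8 lines were compared by F-test, and the COSMC label with and without the CMAS knockout by an interaction term. The fits were also run on simulated data, where many of the genes given a true change were not called. A gene that was not called may therefore still differ. Promoters are RefSeq sequences of GRCm38.p6, and gene symbols came from a GRCm38 annotation that matched 52403 of 52636 identifiers. Tables were handled in pandas 2.3.3 and numpy 2.4.6 under Python 3.11.15, and plots drawn with matplotlib 3.10.9. The members, the other gene lists and the tests were chosen with earlier results of these data known. By rule, all 36 genes are named, values of every sample are given for the 4 genes of each role with the smallest F-test p, and up to 10 called genes are named in each comparison; values given beyond that, including all remaining called genes of MC38-FUT9 and of the line labelled FUT4, and genes named for patterns by sample, were chosen after they were seen. Of the other lists, up to 3 called genes with the largest change are named. Alternatives were 2 other scalings, a pseudocount of 8, a mean of at least 10, no filter, no trend, removal of chromosome medians, a replicate block, 1 fit of all samples and leaving out each sample. The paper's flow cytometry, enzyme and animal data were not analysed here.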

Additional observations from a re-analysis of the deposited data

Results flagged for a closer look

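The change that went with the COSMC knockout label differed between lines with and without the CMAS knockout for 13 of the 36 genes (limma interaction test, adjusted p below 0.05), and they are listed for that difference. The difference was 1.94 on the log2 scale for Slc7a11, 1.77 for Ddit3, 1.01 for Hsp90b1, 0.72 for Trib3, 0.66 for Pdia6, 0.57 for Atf4, 0.53 for Herpud1, 0.47 for Slc3a2, 0.43 for Calr and 0.33 for Manf. It was -0.33 for Mthfd2, -0.45 for Psat1 and -0.49 for Dnajc3. The test for a single outlying value needs at least 4 samples in a group and was not run on lines of 3.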

How the results depend on the processing

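The called genes with the largest change, at most 10 in a comparison and 61 values in all, were followed through the alternatives, and none of these 61 changed sign; further called genes were not followed. Over the settings other than leaving out a sample, 447 of the 539 resulting values kept the call and 92 lost it, 36 of these without the mean-variance trend and 22 with the replicate block; the cause was not tested. Without the trend, the number of the 36 genes called was 1 for MC38-COSMC KO against MC38-MOCK#1, 0 for MC38-CMAS KO, 0 for MC38-WT and 2 for MC38-MOCK#2 against MC38-MOCK#1, 1 for MC38-WT, 7 for the line labelled FUT4 and 7 for MC38-FUT9 against MC38-MOCK#2, 0 and 0 for MC38-DKO against MC38-CMAS KO and MC38-COSMC KO, and 8 for the interaction. With the replicate block it was 0 for MC38-COSMC KO, 0 for MC38-CMAS KO and 0 for MC38-WT against MC38-MOCK#1. Over all genes these block fits called 4 of 22172, 1 of 22024 and 0 of 21621. Against MC38-MOCK#2 it was 0 of the 36 for MC38-WT and 7 for the line labelled FUT4, with 0 of 21292 and 1756 of 21734 genes called. For the 36 genes it was 7 for MC38-MOCK#2 against MC38-MOCK#1, 19 for MC38-FUT9 and 13 for the interaction. In the labels the sample number goes with the passage in every line but the one labelled FUT4, and the sources do not say that equal passages of 2 lines were grown or harvested together. The deviations of same-numbered samples had a mean correlation of -0.106 to 0.174 over the comparisons of lines. In none were all 3 pairs above 0.1, although all 3 were above 0 in 3 of the comparisons, so the number was not taken as a pairing. These correlations cover all genes. In MC38-CMAS KO, MC38-COSMC KO and MC38-DKO, sample 3 was lowest for Atf3 (46, 36 and 40) and Ppp1r15a (1007, 1016 and 782). It was highest for Chac1 (285, 191 and 233) and Ddit3. Sample 3 of MC38-MOCK#1 was instead highest for Atf3 (112) and Ppp1r15a (2053) and lowest for Ddit3 (216), and also highest for Chac1 (141). A shared effect of passage or harvest on these genes was not tested. For MC38-CMAS KO against MC38-MOCK#1 the count was 2 with median-of-ratios scaling, 4 with a mean of at least 10, 3 with chromosome medians removed and 4 in 1 fit of all samples, which gave 10 and 9 for MC38-WT against MC38-MOCK#1 and MC38-MOCK#2. MC38-DKO against MC38-COSMC KO gave 5 with chromosome medians removed.

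Leaving out 1 sample at a time gave 2 to 8 for MC38-COSMC KO, 0 to 2 for MC38-CMAS KO, 0 for MC38-DKO, 0 to 2 for MC38-WT and 0 to 4 for MC38-MOCK#2 against MC38-MOCK#1. It gave 0 to 1 for MC38-WT, 5 to 14 for the line labelled FUT4 and 8 to 12 for MC38-FUT9 against MC38-MOCK#2, 0 to 3 and 1 to 6 for MC38-DKO against MC38-CMAS KO and MC38-COSMC KO, 27 to 33 for all 8 lines and 9 to 15 for the interaction. Of the 426 values that leaving out a sample gave for the same 61, 178 lost the call. With 3 samples a line and about 6760723 to 16232041 reads a sample, differences in low genes such as Atf3 and Chac1 were the least precise.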
